A study of Mus musculus with 6 samples.

Results

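The genes of glycolysis and of the hypoxia response were followed in splenic B cells that over-express Bcl2 and either lack or keep Crebbp. The list held 34 genes, 17 glycolytic enzymes and 17 others (sugar and lactate transporters, kinases that set glycolytic or mitochondrial flux, subunits and hydroxylases of the hypoxia-inducible factor HIF, and other HIF targets). Each gene was read from its probe set with the highest mean over the 6 arrays among those annotated with 1 gene symbol, and 31 of the 34 genes, of 18194 genes in all, were measured in this way. These were 15 enzymes and 16 others; Gpi1, Eno1 and Bnip3l had no such probe set in the annotation used and were not analysed here. The 3 Crebbp-deleted mice (CBPΔ/Δ x EµBcl2) and the 3 Crebbp-floxed mice (CBPF/F x EµBcl2) all over-expressed Bcl2 from a transgene that the Eµ enhancer, active in B lineage cells, drives. Each mouse gave 1 Affymetrix array. The floxed mice carry Crebbp between recombination sites, and neither the Cre that deleted it nor the age of the mice is given in the sources used here. Frozen and thawed spleen cells were the source, and B cells were purified by bead removal of cells that carry CD43, a surface protein of T cells, myeloid cells and plasma cells.

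Glycolysis turns glucose into pyruvate and ATP in the cytosol, and lactate dehydrogenase regenerates the NAD+ that lets it go on. HIF is a dimer of an oxygen-regulated subunit (Hif1a) and a constant one (Arnt). In normal oxygen the prolyl hydroxylases (Egln1, Egln3) mark Hif1a for destruction; without oxygen HIF binds short DNA elements near glycolytic and other genes and recruits the acetyltransferases Crebbp and Ep300 as co-activators. B cells that are activated take up more glucose, and HIF takes part in that shift.

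Levels below are log2 intensities, differences are Crebbp-deleted minus Crebbp-floxed, and p-values are from limma, with Benjamini-Hochberg adjustment across the 18194 genes and a call at 0.05. All 4 probe sets of Crebbp itself stood lower in deleted than in floxed samples, with differences of −0.97 to −0.50 and no overlap between the groups; whether they lie in the deleted stretch is not given. Of the B cell markers 9 of 10 were measured, with a median level of 11.37 against 4.97 over all genes. All 9 had negative differences (median −0.27, 1 past the test, Cd79a), with summed intensities of 19964 to 21518 in deleted samples and 25271 to 30429 in floxed samples. Among markers of other cells, all 9 measured plasma cell markers had positive differences (median 1.14, 1 past the test, Jchain), with sums of 12097 to 18831 in deleted and 6038 to 6900 in floxed samples. All 12 macrophage and monocyte markers had positive differences too (median 1.27, 0 past the test, 7 at an unadjusted p under 0.05), with sums of 1470 to 3399 in deleted and 473 to 1607 in floxed samples. Of 7 T cell markers 6 had positive differences (median 0.12, 0 past the test), with sums of 220 to 245 in deleted and 164 to 224 in floxed samples. The neutrophil, erythroid, NK cell, platelet, and endothelial and stromal lists had 0 past the test too. Positive differences were 4 of 6 in neutrophil, 5 of 5 in erythroid and 2 of 5 in NK cell markers. They were 3 of 6 in platelet and 4 of 7 in endothelial and stromal markers. Over all genes 0.78% passed, 14.8% had an unadjusted p under 0.05 and 53.4% had positive differences. Neutrophil sums were 94 to 641 in deleted and 103 to 455 in floxed samples. Erythroid sums were 43, 42 and 156 in deleted samples 1, 2 and 3 and 39 to 48 in floxed samples. Fewer cells of a type and less RNA per cell cannot be told apart in such samples, and the part of other cells in the results below was not tested. Xist and Y-linked genes marked deleted samples 1 and 3 and floxed sample 1 as male and the others as female. The p-values set each group difference against the spread between mice, which limma estimates for each gene with the help of all genes. In this design an exact permutation test of 1 gene could not give a p under 0.1.

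Of the 31 measured genes 1 passed the test, the prolyl 4-hydroxylase P4ha1, which rose 2.25-fold in the deleted samples. Over all genes 0.78% passed, 0.544% higher and 0.236% lower. At an unadjusted p under 0.05, which 14.8% of all genes reached, there were 7 of the 31, 3 higher (7.95% of all genes) and 4 lower (6.84%). The groups did not overlap in 6 of the 31, 2 higher and 4 lower, against 21.2% of all genes (11.2% higher and 10% lower). The median of the 31 differences was 0.06 (0.01 over all genes), 20 were positive (64.5%, against 53.4% of all genes) and 18 were under 0.2 in size. The share over all genes moved with the mice included: limma called 142 of the 18194 genes with all 6, 0 once floxed sample 1 was left out (1990 at an unadjusted p under 0.05), 16, 45 and 62 without deleted samples 1, 2 and 3, and 140 and 226 without floxed samples 2 and 3.

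**Figure D1:**
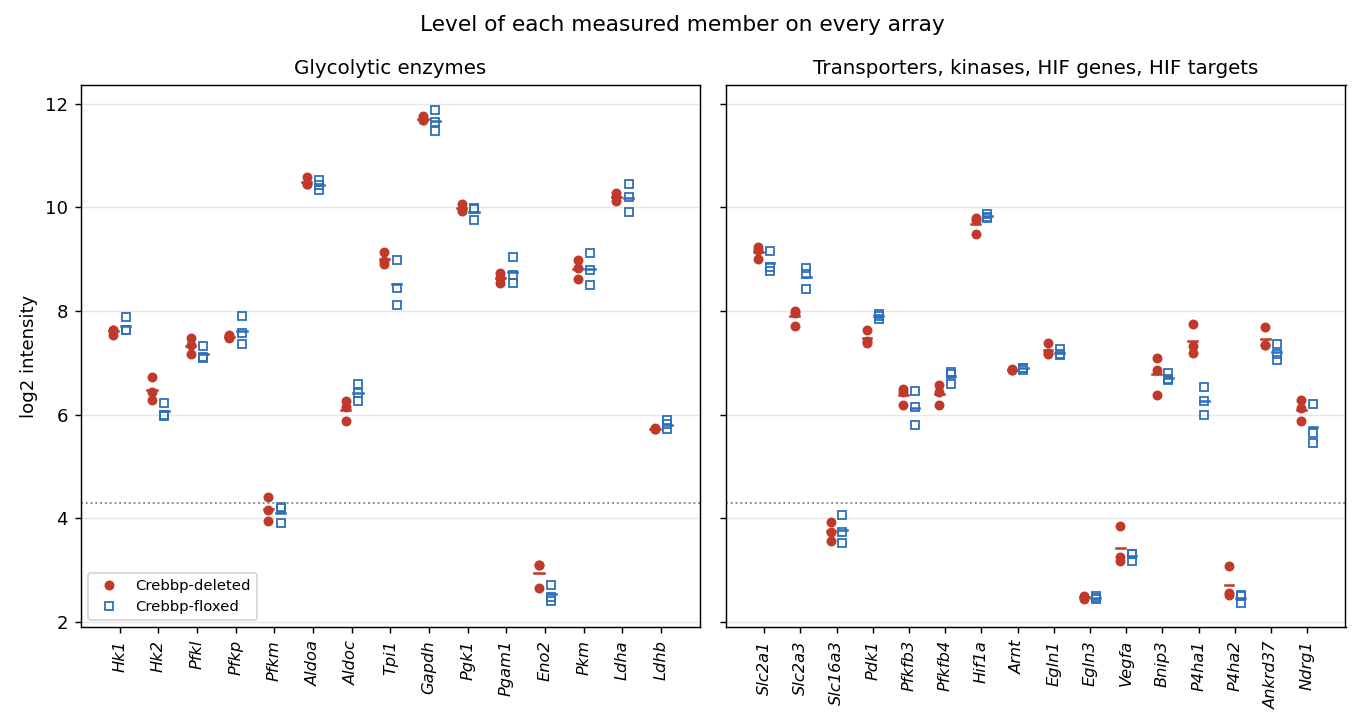
Log2 intensity of each measured gene on every array, in Crebbp-deleted samples (filled circles) and Crebbp-floxed samples (open squares), with a bar at each group's mean (n = 3 each). The dotted line is the median of all probe set means, 4.29; P4ha1 and Slc2a3 show groups that do not overlap, while most glycolytic enzymes do overlap.

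The glycolytic enzymes did not pass the test. limma called 0 of the 15 measured enzymes, against 0.78% of all genes. At an unadjusted p under 0.05 there were 3 (Hk2 and Eno2 higher, Aldoc lower), against 14.8% of all genes. The median difference of the 15 enzymes was 0.03, 10 of the 15 differences were positive (66.7%, against 53.4% of all genes), and 11 were under 0.2 in size. The 95% interval of the difference included 0 in 12 of the 15, and these intervals also bound what 3 mice a group could have missed.

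Among the enzymes of the preparatory steps, Hk2, the inducible hexokinase that traps glucose in the cell, had levels of 6.44, 6.29 and 6.72 in deleted samples and 5.99, 5.97 and 6.22 in floxed samples. All 3 deleted samples lay above all 3 floxed samples, the lowest of them by less than 0.1, and the difference was 0.42 ± 0.13 (SE, limma adjusted p = 0.214). Hk1, the constitutive hexokinase, averaged 7.60 ± 0.05 in deleted and 7.71 ± 0.15 in floxed samples (SD, n = 3 each), a difference of −0.11. Of the subunits of phosphofructokinase, which commits sugar to glycolysis, Pfkl had a difference of 0.16, Pfkp one of −0.11 (3 probe sets from −0.49 to −0.11) and Pfkm, a dim probe set, one of 0.06. Aldoa, the aldolase of muscle and most other tissues, averaged 10.49 ± 0.08 in deleted and 10.43 ± 0.10 in floxed samples (SD, n = 3 each). Its 5 probe sets ran from 0.06 to 0.19, all higher in deleted than floxed samples with overlapping groups, and all of a type whose probes can match other transcripts. Aldoc, an aldolase best known from brain, had levels of 6.14, 5.88 and 6.26 in deleted samples and 6.25, 6.42 and 6.60 in floxed samples. The groups overlapped, the difference was −0.33 ± 0.14 (SE, limma adjusted p = 0.323), and the second of its 2 probe sets stood 0.07 higher.

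Tpi1, triose phosphate isomerase, which interconverts the products of aldolase, had the largest difference among the 15 enzymes. Its levels were 8.96, 8.90 and 9.13 in deleted samples and 8.44, 8.11 and 8.99 in floxed samples. Floxed sample 3 lay among the deleted samples while floxed samples 1 and 2 lay below, so the groups overlapped, and the difference was 0.48 ± 0.21 (SE, limma adjusted p = 0.343). Its 3 probe sets stood 0.48, 0.54 and 0.71 higher.

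Of the enzymes of the pay-off steps, Gapdh, which makes the first NADH of the pathway, was read from a control probe set of the array and had levels of 11.75, 11.68 and 11.68 in deleted samples and 11.65, 11.48 and 11.89 in floxed samples. The floxed samples spanned the deleted ones, and the difference was 0.03 (95% interval −0.24 to 0.31), with the other 2 control probe sets of Gapdh at 0.08 and 0.11. Pgk1, the first enzyme of the pathway to make ATP, had a difference of 0.08 (95% interval −0.16 to 0.32) and Pgam1, the mutase after it, one of −0.12 (−0.45 to 0.21). Pkm, the pyruvate kinase of most tissues outside liver and red cells, had levels of 8.82, 8.61 and 8.99 in deleted samples and 8.79, 8.51 and 9.11 in floxed samples, a difference of 0.003 (95% interval −0.40 to 0.40). Ldha, the lactate dehydrogenase subunit that favours lactate, had levels of 10.20, 10.28 and 10.13 in deleted samples and 10.20, 9.91 and 10.45 in floxed samples. Again the floxed samples spanned the deleted ones, and the difference was 0.01 (95% interval −0.32 to 0.35). Ldhb, the subunit of oxidative tissues, had a difference of −0.08, and 3 of its 4 probe sets went the other way. Eno2, an enolase known as a marker of neurons, averaged 2.95 ± 0.25 in deleted and 2.53 ± 0.16 in floxed samples (SD, n = 3 each), both below the median of all probe sets, and its difference of 0.41 did not pass (limma adjusted p = 0.259).

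**Figure D2:**
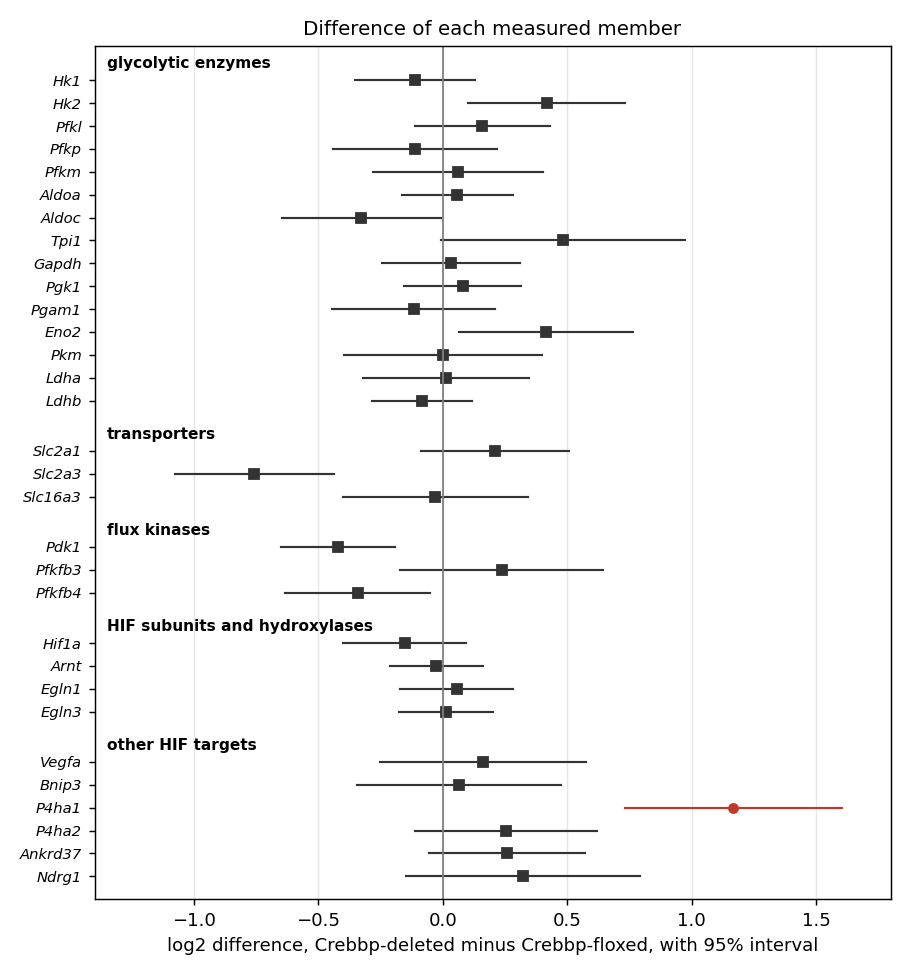
Log2 difference of each measured gene, Crebbp-deleted minus Crebbp-floxed, with its 95% interval from limma; the red circle passed the test (adjusted p under 0.05) and black squares did not. The enzymes lie between −0.33 and 0.48, whereas P4ha1 stands at 1.17 and Slc2a3 at −0.76.

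The enzymes varied among the floxed mice in a shared order. In 10 of the 15 enzymes floxed sample 2 had the lowest and floxed sample 3 the highest level of the 3 floxed samples (66.7%, against 16.2% of all genes). The gap between these 2 mice in those 10 enzymes ran from 0.20 in Aldoa to 0.54 in Ldha, 0.60 in Pkm and 0.88 in Tpi1. The median SD over the 15 enzymes was 0.10 in deleted and 0.17 in floxed samples, where all genes had 0.13 in both groups and the 16 other members 0.18 in deleted and 0.10 in floxed samples. In 4 of the 15 enzymes all deleted samples lay within the range of the floxed ones (26.7%, against 17.2% of all genes). Without floxed sample 2 the median difference of the enzymes was −0.06, and without floxed sample 3 it was 0.12. Marker scores (mean log2 distance from the floxed mean) of neutrophils, NK cells, T cells and plasma cells had the same order in floxed samples 2, 1 and 3. The scores in that order were −0.82, −0.09 and 0.92 for neutrophils and −0.25, −0.10 and 0.35 for NK cells. They were −0.24, 0.10 and 0.14 for T cells and −0.05, 0.02 and 0.03 for plasma cells. By summed intensity the plasma cell markers had the reverse order, with 6900, 6885 and 6038 in floxed samples 2, 1 and 3. In deleted samples 1, 2 and 3 the neutrophil score was −0.91, 0.20 and 1.25. The summed neutrophil intensity was 103 in floxed sample 2, 236 in floxed sample 1 and 455 in floxed sample 3. In floxed samples 2, 1 and 3 the macrophage score was −0.75, 0.83 and −0.08, and the B cell score 0.16, −0.08 and −0.08. The erythroid score was −0.03, 0.17 and −0.15, the platelet score 0.15, −0.18 and 0.03, and the endothelial and stromal score −0.03, 0.03 and 0.01. The part of these cells in the enzymes' spread was not tested.

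**Figure D3:**
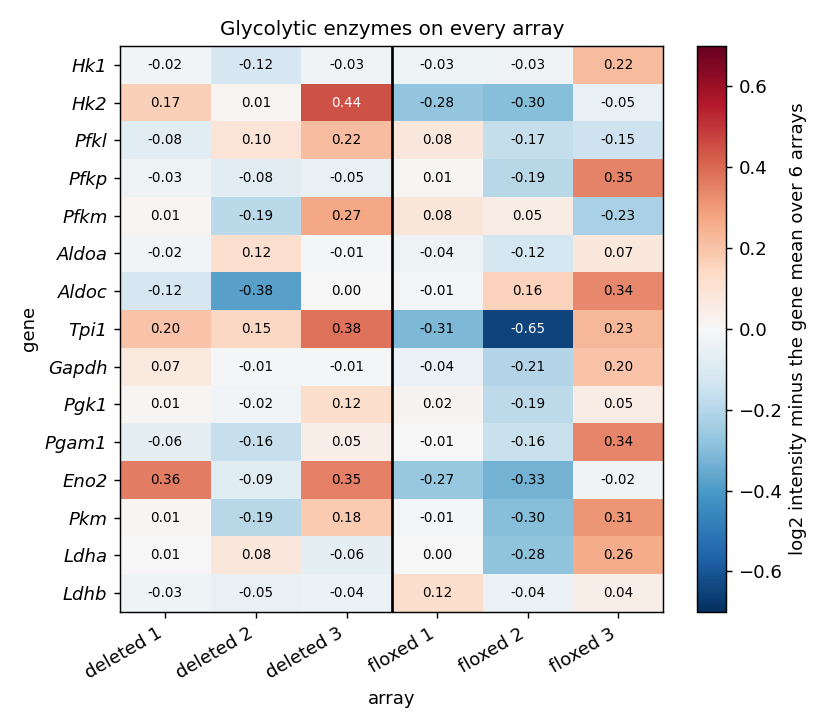
Level of each glycolytic enzyme on every array as log2 intensity minus the gene's mean over the 6 arrays, with deleted samples left of the line and floxed samples right of it. The column of floxed sample 2 is mostly blue, with Tpi1 at −0.65, and that of floxed sample 3 mostly red, with Tpi1 at 0.23 and Pkm at 0.31.

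HIF binds the letters ACGTG or GCGTG, and the 2 enzymes best known as HIF targets, Ldha and Pgk1, are shown because they carry such letters and their groups differed by 0.08 or less. The sequences are the 250 bases before the 5′-most start of each gene, from RefSeq on GRCm38.p6, both on the plus strand, at chr7:46845554-46845803 for Ldha and chrX:106186850-106187099 for Pgk1. Capitals mark ACGTG and GCGTG on either strand, where a palindromic CACGTG, also the letters that MYC binds, counts on both strands.
Ldha: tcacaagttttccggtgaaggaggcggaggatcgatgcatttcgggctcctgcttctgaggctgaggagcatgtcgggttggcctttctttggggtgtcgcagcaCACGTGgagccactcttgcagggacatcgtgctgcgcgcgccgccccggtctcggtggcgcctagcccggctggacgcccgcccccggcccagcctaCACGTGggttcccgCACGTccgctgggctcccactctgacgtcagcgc
Pgk1: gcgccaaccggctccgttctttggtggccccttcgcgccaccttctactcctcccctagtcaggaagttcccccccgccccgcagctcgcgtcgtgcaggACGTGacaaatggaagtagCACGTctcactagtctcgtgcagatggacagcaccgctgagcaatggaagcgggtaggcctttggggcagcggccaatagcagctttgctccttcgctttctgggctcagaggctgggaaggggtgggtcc
The Ldha stretch had 5 matches, all of ACGTG, and that of Pgk1 had 2, also of ACGTG. Of the 31 measured genes 29 had a promoter in the table and 27 of these held at least 1 match at some start (93.1%), 13 of 15 enzymes and 14 of 14 others. Over all genes the share was 41.5%, and 38.6% of all promoters held 1; base composition was not matched, and a match is a description of letters, not a bound site. Tpi1 and Eno2, 2 of the 3 enzymes with the largest positive differences, had no match in this window.

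None of the 3 transporters passed the test. Slc2a3 (GLUT3), a high-affinity transporter of neurons and leukocytes, had levels of 7.969, 7.717 and 8.004 in deleted samples and 8.836, 8.705 and 8.423 in floxed samples. All 3 deleted samples lay below all 3 floxed ones, and the group stood 1.69-fold lower, a log2 difference of −0.76 ± 0.14 (SE) that did not pass (limma adjusted p = 0.0618). Its 4 probe sets were all lower, at −0.76, −0.70, −0.61 and −0.10, the last 1 dim; the first and second are of types whose probes can match several related transcripts. The call depends on 1 floxed mouse and on the fit: without floxed sample 3 Slc2a3 passed at −0.87 (limma adjusted p = 0.0342), and with robust variance estimates it passed at −0.76 (limma adjusted p = 0.0497). Slc2a1 (GLUT1), the transporter that most proliferating cells use, had levels of 9.18, 9.23 and 9.01 in deleted samples and 8.78, 8.85 and 9.16 in floxed samples. Floxed sample 3 overlapped the deleted ones, and the difference was 0.21 ± 0.13 (SE, limma adjusted p = 0.499), with all 3 probe sets higher. Slc16a3 (MCT4), which exports lactate, averaged 3.74 ± 0.19 in deleted and 3.77 ± 0.27 in floxed samples (SD, n = 3 each), below the median of all probe sets.

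Of the kinases that set flux, Pdk1, which phosphorylates pyruvate dehydrogenase and so holds pyruvate back from mitochondria, had levels of 7.43, 7.63 and 7.38 in deleted samples and 7.85, 7.91 and 7.94 in floxed samples. The groups did not overlap, and the difference was −0.42 ± 0.10 (SE), 1.34-fold lower, which did not pass (limma adjusted p = 0.112). All 4 probe sets were lower by a like amount, from −0.42 to −0.39, and at 3 of them the groups did not overlap. Pfkfb4 and Pfkfb3, bifunctional enzymes that make and break fructose 2,6-bisphosphate, the activator of phosphofructokinase, did not pass either. Pfkfb4 averaged 6.39 ± 0.19 in deleted and 6.74 ± 0.12 in floxed samples (SD, n = 3 each), a difference of −0.34 (limma adjusted p = 0.262) with no overlap between the groups. Pfkfb3 had a difference of 0.24 (limma adjusted p = 0.585), with overlapping groups.

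The HIF subunits and their hydroxylases showed small differences. Hif1a had levels of 9.79, 9.75 and 9.49 in deleted samples and 9.81, 9.80 and 9.88 in floxed samples. The groups barely missed overlapping, with deleted sample 1 at 9.789 and the lowest floxed sample at 9.798. The difference was −0.15 ± 0.11 (SE, limma adjusted p = 0.558). All 4 probe sets were lower, from −0.26 to −0.15. The largest fall was at a dim probe set (means of 3.36 in deleted and 3.61 in floxed samples). At the probe sets with differences of −0.190 and −0.188 the groups overlapped. Arnt averaged 6.86 ± 0.01 in deleted and 6.89 ± 0.02 in floxed samples (SD, n = 3 each), a difference of −0.03 (95% interval −0.21 to 0.16). Egln1, the main oxygen-sensing hydroxylase, had a difference of 0.06 (95% interval −0.17 to 0.28), and Egln3, an inducible hydroxylase that HIF itself switches on, was dim in both groups (means of 2.48 in deleted and 2.46 in floxed samples).

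The 6 measured genes among the other HIF targets all had positive differences (median 0.26), as 53.4% of all genes had, and 1 of them passed the test. That gene was P4ha1, the catalytic subunit of collagen prolyl 4-hydroxylase, which hydroxylates prolines of procollagen in the endoplasmic reticulum. Its levels were 7.75, 7.33 and 7.19 in deleted samples and 6.26, 5.99 and 6.52 in floxed samples. The lowest deleted sample lay well above the highest floxed one, and the difference was 1.17 ± 0.19 (SE, limma adjusted p = 0.0468). Its second probe set had levels of 5.93, 5.50 and 5.52 in deleted samples and 4.51, 4.31 and 4.99 in floxed samples, a difference of 1.04. The call is close to the threshold: limma gave an adjusted p of 0.140, 0.108 and 0.0760 without deleted samples 1, 2 and 3, and 0.172, 0.0808 and 0.0319 without floxed samples 1, 2 and 3. With sex as a term the difference was 1.14 (limma adjusted p = 0.105), in males alone it was 1.21 and in females alone 1.07, neither past the test. The plasma cell sums given above separated the groups in the same direction as P4ha1. Within each group their order was the reverse of that of P4ha1. They were 12097, 12617 and 18831 in deleted samples 1, 2 and 3 and 6885, 6900 and 6038 in floxed samples 1, 2 and 3. The macrophage sums overlapped between the groups (deleted sample 2 at 1470 and floxed sample 1 at 1607). The part of these cells in the result was not tested.

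The promoter stretches of P4ha1 and Pdk1, the gene that passed and the kinase that stood lower at every probe set, are given with the same marks. They are again the 250 bases before the 5′-most RefSeq start on GRCm38.p6, on the plus strand, at chr10:59323046-59323295 for P4ha1 and chr2:71872974-71873223 for Pdk1.
P4ha1: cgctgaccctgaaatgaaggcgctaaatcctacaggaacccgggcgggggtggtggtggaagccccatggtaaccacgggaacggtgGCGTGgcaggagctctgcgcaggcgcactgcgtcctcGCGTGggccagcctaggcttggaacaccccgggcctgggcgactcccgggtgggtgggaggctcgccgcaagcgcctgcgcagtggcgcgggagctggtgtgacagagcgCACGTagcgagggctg
Pdk1: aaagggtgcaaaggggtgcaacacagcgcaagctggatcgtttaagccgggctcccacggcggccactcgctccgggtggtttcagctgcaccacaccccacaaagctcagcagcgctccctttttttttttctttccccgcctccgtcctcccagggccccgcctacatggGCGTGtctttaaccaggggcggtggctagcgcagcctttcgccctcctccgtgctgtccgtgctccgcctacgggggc
P4ha1 held 3 matches, 1 of ACGTG and 2 of GCGTG, and Pdk1 held 1, of GCGTG. With a match in 27 of the 29 members that had a promoter, carrying the letters could not set higher genes apart from lower ones.

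**Figure D4:**
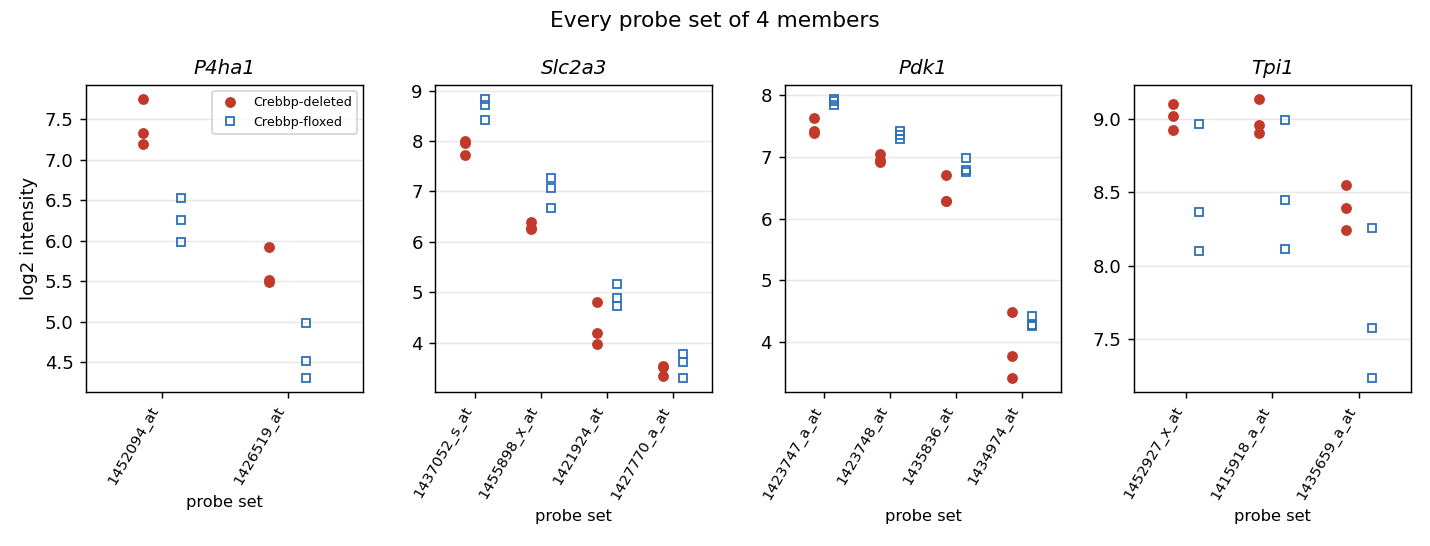
Log2 intensity of every probe set of P4ha1, Slc2a3, Pdk1 and Tpi1 on each array, in Crebbp-deleted samples (filled circles) and Crebbp-floxed samples (open squares). Both probe sets of P4ha1 separate the groups, 3 of the 4 of Pdk1 do, and in Tpi1 floxed sample 3 reaches the deleted samples.

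The remaining HIF targets did not pass. P4ha2, a second catalytic subunit of the same collagen enzyme, was dim, averaging 2.72 ± 0.31 in deleted and 2.46 ± 0.08 in floxed samples (SD, n = 3 each). Ndrg1, a stress-responsive gene linked to differentiation, had a difference of 0.32 ± 0.20 (SE, limma adjusted p = 0.514), with its 5 probe sets between 0.10 and 0.53, all higher. Ankrd37, an ankyrin repeat gene used as a readout of HIF, had levels of 7.35, 7.34 and 7.69 in deleted samples and 7.06, 7.17 and 7.37 in floxed samples, a difference of 0.26 with overlapping groups (limma adjusted p = 0.423). Vegfa, the angiogenic growth factor, was dim, with a difference of 0.16. At this probe set deleted sample 3 at 3.85 stood apart from the other 5 samples, which lay between 3.18 and 3.31. A second probe set, also dim, had levels of 3.17, 3.27 and 3.52 in deleted samples and 2.80, 3.02 and 3.15 in floxed samples. There the groups did not overlap, and the difference was 0.33 (limma adjusted p over all probe sets with 1 gene symbol = 0.310). Bnip3, which drives mitophagy, had levels of 7.09, 6.86 and 6.39 in deleted samples and 6.66, 6.69 and 6.80 in floxed samples. The deleted samples spanned the floxed ones, with a difference of 0.07.

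Wider lists around the pathway gave no call. Over 7 lists with 99 measured genes of 107, limma called 0, against 0.78% of all genes. At an unadjusted p under 0.05 there were 16, near the share of all genes (14.8%). Of the differences 49 were positive (49.5%, against 53.4% of all genes). Among 15 further HIF subunits and regulators 5 had an unadjusted p under 0.05, which 14.8% of all genes reached. Cited2, which competes with HIF for the same domain of Crebbp and Ep300 and is itself a HIF target, had levels of 8.85, 9.43 and 9.29 in deleted samples and 8.38, 8.43 and 8.01 in floxed samples. Every deleted sample lay above every floxed one, a difference of 0.92 ± 0.18 (SE) that did not pass (limma adjusted p = 0.0729). Hif1an, the asparagine hydroxylase that blocks the binding of HIF to its co-activators, had a difference of −0.35 ± 0.09 (SE, limma adjusted p = 0.142), also without overlap. Crebbp, a member of that list, had a difference of −0.50 at its main probe set.

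Among 26 further HIF targets 7 had an unadjusted p under 0.05 (against 14.8% of all genes), 4 higher and 3 lower, and the median was 0.07. Mxi1, a MYC antagonist, averaged 7.29 ± 0.16 in deleted and 6.53 ± 0.21 in floxed samples (SD, n = 3 each), a difference of 0.76 (limma adjusted p = 0.0602). Plin2, a coat protein of lipid droplets, averaged 7.45 ± 0.11 in deleted and 6.76 ± 0.23 in floxed samples (SD, n = 3 each), a difference of 0.69 (limma adjusted p = 0.0719). Wsb1, a substrate adaptor of a ubiquitin ligase, went the other way, with a difference of −0.42 (limma adjusted p = 0.103). In each of these 3 genes, named because they had the smallest p of the list, the groups did not overlap. In all, the groups did not overlap in 6 of the 26, against 21.2% of all genes. Of 9 other glucose transporters 2 had an unadjusted p under 0.05. Slc2a13, a proton-coupled myo-inositol transporter, had a difference of 0.65 and Slc2a9, a urate transporter, one of −0.66, with Slc2a12 at 0.36. None of these had a limma adjusted p under 0.1. Slc2a13 and Slc2a12 were dim, below the median of all probe sets. In Slc2a9 the groups overlapped, with floxed sample 1 at 4.30 among the deleted samples (4.16 to 4.35) and floxed samples 2 and 3 at 5.47 and 4.87. Other isoforms and enzymes around glycolysis had 0 of 13 at an unadjusted p under 0.05, and the 3 with the smallest p, Pfkfb2, Gapdhs and Ldhc, had differences of −0.30, −0.27 and 0.21.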

How the data were processed

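Per the labels, splenic B cells of 6 mice were hybridised to Affymetrix arrays, 1 array a mouse. The values the authors deposited are normalized intensities of probe sets, made with RMA per the submitters' processing notes, with no version named. They run from 2.96 to 17022, a linear scale, and were converted to log2 without renormalizing. Precision is set by how few arrays there are.

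Of 45101 probe sets 34958 had 1 gene symbol in the platform's annotation, 932 had several and 9211 none; symbols were checked by Entrez ID against a RefSeq table of GRCm38.p6, and 0 changed. Each of 18194 genes was represented by its single-symbol probe set with the highest mean, control probe sets of mouse transcripts included, which is how Gapdh was read. Crebbp-deleted was compared with Crebbp-floxed in limma 3.58.1 (R 4.3.3; lmFit, eBayes, two-sided, no covariates). The procedure was tested on simulated data. Promoters were taken from RefSeq. Figures used matplotlib 3.10.9 (Python 3.11.15).

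The members, lists and tests were chosen with earlier results of these data known. The genes named are all members, the 3 genes with the smallest p of each wider list, and Crebbp. Alternatives covered array scaling, dim genes, the choice of probe set, limma settings, replicate numbers as a block, sex as a term and each sample left out; leaving out control probe sets and fits within each sex were chosen after seeing the data.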

Additional observations from a re-analysis of the deposited data

How the results depend on the processing

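limma called 0 glycolytic enzymes in each of the 19 alternatives. As 0.78% of all genes passed with all 6 samples, and 0 without floxed sample 1, that count says little about the enzymes. The median difference of the enzymes ran from −0.06 to 0.12 over the samples left out (0.01 to 0.11 for the other members). P4ha1 stayed higher by 1.00 to 1.30 throughout but passed in 8 of 19. The other members called numbered 0 when genes below the median level were left out, with the mean of a gene's probe sets, with the replicate block, with sex as a term, in males only and in females only. They numbered 2 (P4ha1 and Slc2a3) with robust variances, and 0 to 2 over the samples left out. With the replicate block limma's adjusted p of P4ha1 was 0.0559, and the block moved the count over all genes to 126 from 142; it changed no other call among the members. Same-numbered samples of the 2 groups had deviations that correlated at 0.03, 0.10 and 0.01, so the numbers were not taken as pairs. With the probe set of largest SD the median of the other members was 0.12 (0.06 otherwise). Over all genes limma called 37 with sex as a term, 4 in males only, 0 in females only (991 at an unadjusted p under 0.05), and 0 to 226 over the samples left out. Fits within a sex have fewer samples, with 1 sample in an arm taken to share the other arm's spread; the cause of the other shifts was not tested. Sign changes touched 0 to 5 of the members in any alternative, each of them 0.16 or less in size in the comparison of all samples and none of them called. For 6 of the 31 the probe set lay below the median level, which limits what their differences can show.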

Other observations

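The routes that branch from glycolysis were measured as well, from lists that the results above do not describe. Over all genes limma called 0.78%, and 14.8% had an unadjusted p under 0.05. At 0.78%, a count of 0 calls is likely in any list this short. In the pentose phosphate pathway, which draws on glucose 6-phosphate for NADPH and ribose, limma called 0 of 7 measured genes, with 1 at an unadjusted p under 0.05. That gene was Rpe, the epimerase of ribulose 5-phosphate, with levels of 8.28, 8.29 and 8.36 in deleted samples and 7.93, 7.99 and 7.92 in floxed samples. The groups did not overlap and the difference was 0.36 ± 0.08 (SE, limma adjusted p = 0.105). H6pd, which makes NADPH in the endoplasmic reticulum, had a difference of 0.29 and Tkt, transketolase, one of −0.13.

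Of 14 genes that handle pyruvate and lactate limma called 0, with 1 at an unadjusted p under 0.05. Slc16a7 (MCT2), a monocarboxylate transporter, averaged 4.90 ± 0.12 in deleted and 5.40 ± 0.21 in floxed samples (SD, n = 3 each), a difference of −0.50 (limma adjusted p = 0.145). Bsg, the chaperone that brings such transporters to the surface, had a difference of 0.31 and the pyruvate dehydrogenase kinase Pdk2 one of −0.21. In the citric acid cycle limma called 0 of 15 genes, with 0 at an unadjusted p under 0.05 (0.78% and 14.8% of all genes). Its differences ran from −0.17 in Suclg1, a subunit of succinyl-CoA ligase, to 0.09, with Fh1, fumarase, at −0.15 and Sdhb, the iron-sulphur subunit of succinate dehydrogenase, at −0.12.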
